A study of Zea mays with 6 samples.

Results

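The subject is the set of transposable element features with the most RNA reads in the third leaf of maize. The features come from the gene table of the study, which assigns each of 110149 features to an annotation class, and 29953 of them belong to the class named transposable element. Members were chosen by reads: the features of that class were ordered by the sum of exon reads over the 4 RNA libraries, and the first 300 were kept. Their read sums are therefore a description, and only the difference between the leaf zones and the values of the histone marks are compared. The read sum does not fix the direction of a zone difference, but a feature that is abundant in 1 zone can enter on that zone alone.

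Transposable elements are stretches of DNA that can move or copy themselves within a genome. Retrotransposons copy through an RNA intermediate, DNA transposons move as DNA, and the maize genome is rich in both. Most copies are kept silent by DNA methylation and by small RNAs that direct it. Histone H3 acetylated at lysine 9 (H3K9ac) and histone H3 trimethylated at lysine 4 (H3K4me3) are marks typically found at the start of transcribed genes. A gene model can carry the transposable element class because its predicted sequence resembles an element, which does not say whether it can move.

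The material was the maturing zone, which was 4 cm long and came from the central, lit blade of leaf number 3 of B73, a maize inbred line. Its counterpart was the base, the bottom 1 to 2 cm of those leaves, taken where light had no access after plants were cut 0.5 cm above the soil. All plants were B73, with no treatment or mutation named in the labels, kept at 25 °C in the light (16 h a day) and at 20 °C in the dark (8 h), harvested 13 to 14 days after sowing. Each RNA replicate pooled 6 plants and each chromatin replicate 10 plants. Both zones are whole pieces of leaf with several cell types, so fewer cells of a type and less RNA per cell cannot be told apart. The series has 6 samples: RNA, H3K9ac and H3K4me3, each in the maturing zone and in the base.

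The RNA table separates libraries A and B of each zone. Maturing zone libraries A and B held 50657759 and 18325106 exon reads, and base libraries A and B held 44243772 and 24205348. Levels are given as CPM (read counts scaled to a common library size) after scaling with trimmed means of M values (TMM), in the order A and B within a zone. The zone labels were checked with the C4 enzyme PEP carboxylase (PEPC, GRMZM2G083841), at 9504 and 13901 CPM in the maturing zone against 8.33 and 9.21 CPM in the base. The DNA replication gene MCM6 (GRMZM2G021069) stood at 0.0494 and 0.197 CPM in the maturing zone against 64.9 and 25.4 CPM in the base. Both genes separated the zones in all 4 libraries. The H3K9ac and H3K4me3 tables give the authors' average per zone for each of 43734 and 32908 regions, without values per replicate.

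Reads of the class were concentrated in few features. The 300 members held 1028538 of the 1085059 reads assigned to the class, or 94.8%, and the first 10 members held 42.0% of the members' reads, the first 50 held 68.8% and the first 100 held 82.4%. Of the other 29653 features of the class, 3256 had any read. Just inside the limit stood GRMZM2G700121 with 300 reads and AC186147.3_FG006 with 298, and just outside it GRMZM2G181435 with 297 and GRMZM2G153351 with 295. Members took 0.768% and 0.366% of all exon reads in libraries A and B of the maturing zone, against 0.860% and 0.793% in base libraries A and B. After TMM scaling their sum was 9615 and 6615 CPM in the maturing zone against 5172 and 5848 CPM in the base. Without the most read member the sums were 7238 and 6098 CPM in the maturing zone against 5146 and 5838 CPM in the base. Both maturing zone libraries were thus below both base libraries in the share of reads and above them in the scaled sum.

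**Figure D1:**
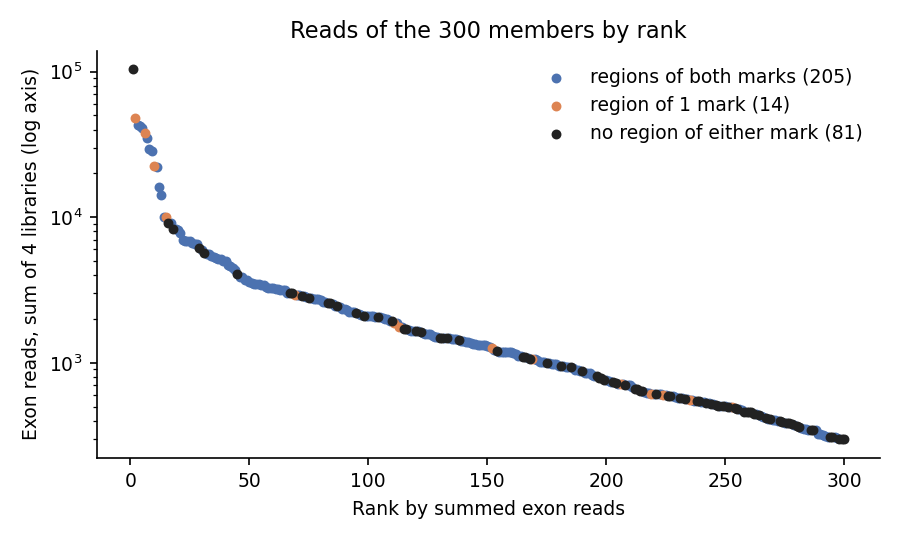
Exon reads of each of the 300 members, summed over the 4 RNA libraries (log axis), against rank. Colours show whether regions of both marks (205 members), of 1 mark (14) or of neither (81) name the member as next gene; members with no region occur along the whole range, the most read member included.

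Per feature length, members covered a wide range. Their median RPKM (read density per exon length and library size, as deposited) was 3.41 and 1.83 in maturing zone libraries A and B, against 6.78 and 4.02 in base libraries A and B. The protein-coding features tested had medians of 3.27 and 2.15 in the maturing zone against 7.65 and 6.36 in the base. Lower medians in the maturing zone were thus not particular to members. Members ranged in each library from 0 RPKM to maxima of 1040 and 342 in the maturing zone and 350 and 843 in the base.

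Few members could be tied to a current gene model. The tables give no sequence, element family or gene name, and RefSeq (assembly Zm-B73-REFERENCE-NAM-5.0, used for names only) lists 6 of the 300 members, or 2%, against 68.3% of the protein-coding features tested. Of these 6, 5 are protein-coding in RefSeq and GRMZM5G887345 is a transcribed pseudogene. The label could not be checked further for the other 294 members. GRMZM2G336871, the twentieth by reads, is the RefSeq gene LOC100240694, listed there under the name Atg8a, which is that of an autophagy gene. It stood at 123 and 86.3 CPM in the maturing zone against 24.8 and 16.7 CPM in the base, so that the zones were apart. It was higher by 2.33 ± 0.52 on the log2 scale (SE; n = 2 libraries in either zone; edgeR adjusted p = 0.0286). It was no longer called without library A (0.0768) or B (0.159) of the base or library A of the maturing zone (0.0988), or under library totals (0.220). The other 5 were not called, with differences of 0.64 for GRMZM2G095955, -0.41 for GRMZM5G887345, 0.29 for GRMZM2G009519, -1.74 for GRMZM2G156476 and -1.47 for GRMZM2G045392. With letters as pairs edgeR called GRMZM2G095955, GRMZM2G156476 and GRMZM2G045392 (adjusted p = 0.009997, 5.78e-05 and 0.000632).

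The zone comparison asked which transcripts differ between the maturing and the young part of the leaf. All 300 members passed the count filter. In the fit over all 26787 features tested (edgeR quasi-likelihood test, Benjamini-Hochberg adjusted p under 0.05), 39 members were higher in the maturing zone and 27 were lower. That is 13% higher beside 13.5% of all features tested, 9% lower beside 15.8%, and 22% called either way beside 29.2%. The share called was 15.6% among the other 314 tested features of the class, 30.9% among protein-coding features and 17.2% among gene models of the low-confidence class. In this fit the members' share of higher calls lay near the background, and their share of lower calls below it. Without the count filter 15% of members were higher and 15.3% lower, beside 10.7% and 13.5% of all 44892 features then fitted, and beside 16.6% and 22.2% of the features that pass the filter. The median log2 difference (maturing zone minus base) was 0.09 over the members and -0.13 over all features tested, and the median size of the difference was 1.30 against 1.60. Called members differed by 1.86 to 11.18 on the log2 scale when higher, with a median of 4.67, and by -7.88 to -1.86 when lower, with a median of -4.11.

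Both libraries of the maturing zone lay above both base libraries for 100 members, beside 30.8% of all features, and below them for 87, beside 36.9%. The zones overlapped for the remaining 113. The 234 members not called had differences from -3.47 to 3.17, with 95% intervals of a median width of 3.64, and for 0 of the 300 members did the interval lie wholly between -1 and 1. A missing call therefore does not show that a member was at the same level in both zones. With libraries of the same letter treated as pairs, 116 members were higher, beside 35.6% of all features, and 105 were lower, beside 40.4%, with 76% of all features called either way. Under library totals in place of TMM, which moved the median over all features by -1.14, 26 members were higher (8.67%) and 76 lower (25.3%), beside 9.51% and 31.0% of all features, so the balance of calls turned for all features alike. No called member changed direction there or under any other setting tried. Of the 66 called members, 40 were still called with library A of the maturing zone left out, 47 with its library B, 47 with library A of the base and 50 with its library B, and 35 were called in all 4 of these fits.

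Libraries A and B differed along with the members. The median of A minus B over the members was 0.36 in the maturing zone and 0.29 in the base on the log2 scale after adding 0.5 CPM, against 0.03 and -0.05 over all features tested. For 161 members A lay above B in both zones, and for 88 B lay above A in both. Members were chosen by unscaled read sums, to which the larger A libraries add more. The choice itself can therefore favour features high in A, and its part in these values was not tested. Across the 300 members, which share the same libraries and are not replicates, A minus B in the maturing zone had a Pearson's r of 0.865 with A minus B in the base, against 0.808 over all features tested. The fit that treats equal letters as pairs removes this shared difference and gave the 116 higher and 105 lower calls above.

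**Figure D2:**
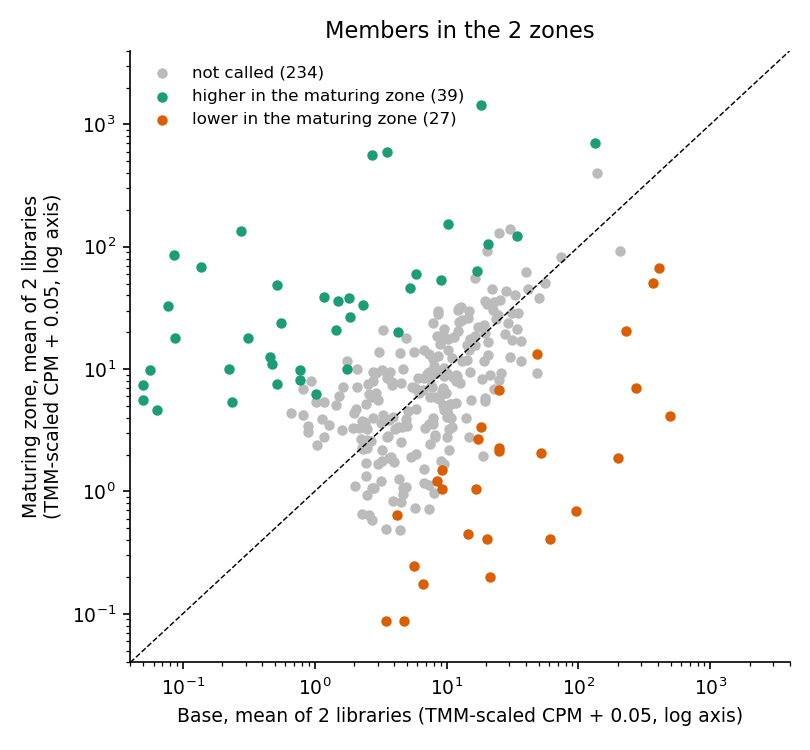
Mean TMM-scaled CPM of each member in the maturing zone (vertical) and in the base (horizontal), 2 libraries each, with 0.05 added and log axes; the dashed line marks equal levels. The 39 members called higher lie above the line and the 27 called lower below it, and the calls include members at nearly every level.

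Of the 10 most read members, 3 were higher, 5 were lower and 2 were not called. The shares over all features tested were 13.5% higher and 15.8% lower. These 10 were chosen by reads, which 1 zone can supply, so the counts are a description. The most read member, GRMZM2G059412, stood at 2377 and 516 CPM in the maturing zone against 26.2 and 10.0 CPM in the base. Library A of the maturing zone alone held 96218 of its 103713 reads, and the zones did not overlap. It was higher by 6.32 ± 1.25 on the log2 scale (SE; n = 2 libraries in either zone; edgeR adjusted p = 0.0222), with 4.83 when maturing zone library A was left out and 7.18 when base library A was left out. No region of either mark named it as next gene. GRMZM2G703753, the sixth by reads, stood at 865 and 264 CPM in the maturing zone against 3.74 and 1.59 CPM in the base. It was likewise highest in maturing zone library A and differed by 7.72 ± 1.1 (edgeR adjusted p = 0.0139), with a range of 6.63 (maturing zone library A left out) to 8.48 (base library A left out).

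GRMZM2G137734, the second by reads, stood at 720.4 and 677 CPM in the maturing zone against 88.7 and 176 CPM in the base. Its zones were apart, but its call was the narrowest of these 10: the difference was 2.40 ± 0.68 (edgeR adjusted p = 0.0493), and the call was lost whichever library was left out, with adjusted p from 0.0856 without base library B to 0.269 without base library A. Under library totals its difference was 1.30, with an edgeR adjusted p of 0.172. GRMZM2G375724, the seventh, stood at 419.9 and 377 CPM in the maturing zone against 128 and 149.6 CPM in the base. It was higher in both maturing zone libraries, but its difference of 1.52 ± 0.55 was not called (edgeR adjusted p = 0.0906; 0.00119 with letters as pairs).

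The 5 lower members among the first 10 differed in how low they fell. GRMZM2G344911 stood at 0.717 and 7.40 CPM in the maturing zone against 232 and 758 CPM in the base, and at 843 RPKM it was the highest member of base library B per feature length. Its B libraries were above its A libraries in both zones, and its difference was -6.97 ± 1.51 (edgeR adjusted p = 0.0267), from -9.45 without maturing zone library B to -5.91 without base library B. GRMZM2G092578 stood at 5.83 and 7.99 CPM in the maturing zone against 277 and 264 CPM in the base. Its libraries were close within each zone, and the difference was -5.30 ± 0.60 (edgeR adjusted p = 0.0130).

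GRMZM2G073792 stood at 27.9 and 13.3 CPM in the maturing zone against 301.8 and 157 CPM in the base. GRMZM2G135177 stood at 61.4 and 73.8 CPM in the maturing zone against 325 and 487 CPM in the base. GRMZM5G881775 stood at 57.3 and 43.7 CPM in the maturing zone against 346 and 383 CPM in the base. For each of these the zones were apart while the maturing zone kept a clear level. Their differences were -3.47 ± 0.70, -2.58 ± 0.59 and -2.85 ± 0.56 in that order (edgeR adjusted p = 0.0231, 0.0294 and 0.0221). GRMZM2G135177 was no longer called without base library B (0.0694) or without library A (0.211) or B (0.101) of the maturing zone, and GRMZM5G881775 without library A (0.105) or B (0.103) of the maturing zone. GRMZM2G064877, the tenth by reads, stood at 65.8 and 118 CPM in the maturing zone against 121 and 295 CPM in the base. Its zones nearly met, and its difference of -1.18 ± 0.68 was not called (edgeR adjusted p = 0.240; 0.00315 with letters as pairs).

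The largest called rises were of members with few or no reads in the base. GRMZM2G134914 had 399 and 49 reads in the maturing zone against 0 and 0 in the base, and GRMZM2G388129 had 353 and 24 reads against 0 and 0. With the base set to a floor of 3 reads over the zone, they were at least 314-fold and at least 264-fold higher in the maturing zone (edgeR adjusted p = 0.0146 and 0.0191). Neither had a region of either mark. GRMZM5G829881 had 687 and 27 reads in the maturing zone against 1 and 0 in the base, a ratio of scaled sums of 1501 with an exact 95% interval of 268 to 59354 that covers counting error only. GRMZM2G350391 had 766 and 174 reads in the maturing zone against 1 and 2 in the base, a ratio of 659 with an exact interval of 225 to 3199. Both were called higher (edgeR adjusted p = 0.0163 and 0.0130), and no read count of a base library reached that of a maturing zone library.

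GRMZM2G528929 stood at 36.7 and 136 CPM in the maturing zone against 0.0408 and 0.0305 CPM in the base, a difference of 11.07 ± 1.13 (edgeR adjusted p = 0.0130). GRMZM2G316474 stood at 26.8 and 38.4 CPM in the maturing zone against 0.0544 and 0 CPM in the base, a difference of 9.77 ± 1.08 (edgeR adjusted p = 0.0130). GRMZM2G156351 stood at 87.6 and 48.2 CPM in the maturing zone against 0.0816 and 0.0915 CPM in the base, a difference of 9.58 ± 0.76 (edgeR adjusted p = 0.0130). In these 3 every maturing zone library lay far above every base library, and the base levels rest on few reads. GRMZM2G113875 stood at 239 and 29.4 CPM in the maturing zone against 0.394 and 0.0610 CPM in the base. Its A libraries lay above its B libraries in both zones, and its difference of 9.09 ± 1.61 (edgeR adjusted p = 0.0180) ranged from 6.90 with maturing zone library A left out to 11.01 with base library A left out. For GRMZM2G316474 the value was 12.82 without base library A, which leaves 0 reads in the base.

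Of the 8 largest called falls, GRMZM2G344911 is described above, and 3 kept only 3 reads in the maturing zone. GRMZM2G066598 had 0 and 3 reads in the maturing zone against 1274 and 822 in the base, which was 332-fold lower with an exact interval of 114 to 1613. GRMZM2G051915 had 3 and 0 reads in the maturing zone against 339 and 157 in the base, 78.7-fold lower with an exact interval of 26.8 to 383. GRMZM2G439229 had 3 and 0 reads in the maturing zone against 289 and 95 in the base, 60.9-fold lower with an exact interval of 20.7 to 297. All 3 were called lower, with edgeR adjusted p of 0.0222, 0.0180 and 0.0217 in that order. The zones were fully apart in each. The fitted difference of GRMZM2G066598 was -7.88, and -13.01 without maturing zone library B, which leaves 0 reads there. Those of GRMZM2G051915 and GRMZM2G439229 were -6.39 and -5.94, and -10.49 and -10.04 without maturing zone library A, which likewise leaves 0 reads.

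GRMZM2G033222 stood at 0.0988 and 1.18 CPM in the maturing zone against 49.0 and 143 CPM in the base, a difference of -7.46 ± 1.43 (edgeR adjusted p = 0.0208). GRMZM5G836314 stood at 0.420 and 0.296 CPM in the maturing zone against 72.5 and 48.6 CPM in the base, a difference of -7.33 ± 0.66 (edgeR adjusted p = 0.0130). GRMZM2G079430 stood at 0.124 and 0.592 CPM in the maturing zone against 21.3 and 19.4 CPM in the base, a difference of -6.06 ± 0.97 (edgeR adjusted p = 0.0155). In these 3, every base library was far above every maturing zone library. GRMZM2G302131 stood at 0.395 and 3.26 CPM in the maturing zone against 71.1 and 328 CPM in the base. Its B libraries were above its A libraries in both zones, and its difference was -6.85 ± 1.47 (edgeR adjusted p = 0.0261). Without maturing zone library B, GRMZM2G033222 stood at -9.91 and GRMZM2G302131 at -8.98. The calls of the 8 members with the largest falls, GRMZM2G344911 included, and of the 8 with the largest rises were kept without each library in turn, with the highest adjusted p, 0.0425, for GRMZM2G439229 without maturing zone library B.

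**Figure D3:**
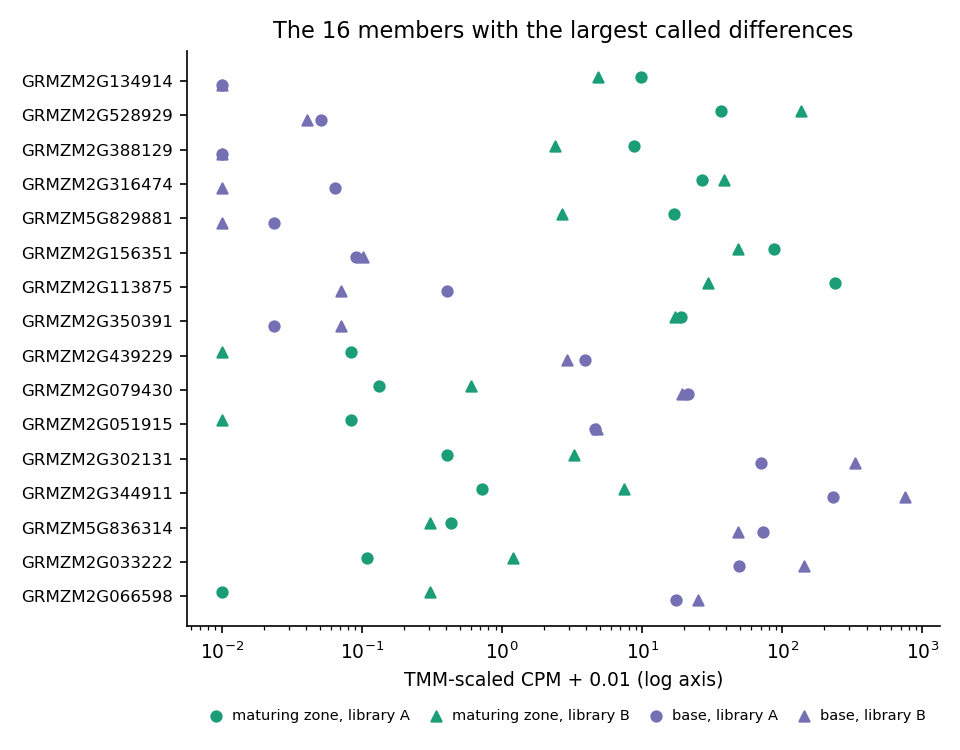
TMM-scaled CPM with 0.01 added (log axis) of the 8 members with the largest called rises and the 8 with the largest called falls, 1 point per library. Maturing zone and base points do not overlap in any of the 16, and points at 0.01 had 0 reads.

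Histone regions were common beside members. Each region in the authors' deposited tables names its next gene, and the files used here give no positions for the features, so a region may lie at a distance from the member it names. By this link 214 of the 300 members (71.3%) had an H3K9ac region and 210 (70%) an H3K4me3 region, against 8.93% and 4.97% of the other features of the class. Among features with at least 298 reads, the level of the last member, the shares were 88.6% and 86.4% of protein-coding features and 59.1% and 53.0% of low-confidence features. Over all features with at least 298 reads they were 86.7% and 84.3%. Members' shares therefore lay between those of protein-coding and low-confidence features above that floor. Read levels above the floor were not matched between these groups. Of ranks 1 to 100, 101 to 200 and 201 to 300, 84, 76 and 54 had an H3K9ac region and 81, 76 and 53 an H3K4me3 region. Regions of both marks named 205 members, H3K9ac alone 9, H3K4me3 alone 5 and neither mark 81.

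The 2 marks mostly lay on the same stretch. Of the members' 264 H3K9ac regions 233 overlapped an H3K4me3 region, and of their 238 H3K4me3 regions 232 overlapped an H3K9ac region. The H3K9ac regions were spread over the 10 chromosomes, from 11 on chromosome 9 to 42 on chromosome 2, with 1 more on an unplaced scaffold. A single H3K9ac region named 172 members, 2 regions named 35, 3 named 6 and 4 named 1. In the authors' deposited tables the median of the larger zone average was 433 for members' H3K9ac regions, against 288 over all H3K9ac regions, and 213 for members' H3K4me3 regions, against 239 over all. Regions beside the other features of the class had medians of 155 for H3K9ac and 111 for H3K4me3 in the authors' deposited tables. Those beside protein-coding features had medians of 347 and 267 there. None of these medians was taken at matched read levels.

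Part of the member regions differed between the zones. At the FDR under 0.05 of the authors' deposited table, 62 of 264 H3K9ac regions (23.5%) were higher in the maturing zone, called gained, beside 33% of all H3K9ac regions. Lower, called lost, in the same deposited table were 76 (28.8%), beside 33.8%, and 126 (47.7%) were not called, while 66.8% of all regions were called either way. For H3K4me3 the authors' deposited table gave 14 of 238 regions gained (5.88%) beside 11.3% of all, 29 lost (12.2%) beside 14.3%, and 195 not called (81.9%), with 25.6% of all regions called. Members' shares were lower than those over all regions, by little for lost H3K4me3 regions. All regions include those beside features with few or no reads. Shares at matched read levels were not taken, so whether the lower shares are particular to members was not tested. Gained H3K9ac regions differed by a median of 1.75-fold and lost ones by a median of 1.85-fold in the authors' deposited table, and gained and lost H3K4me3 regions by medians of 3.22-fold and 3.32-fold.

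**Figure D4:**
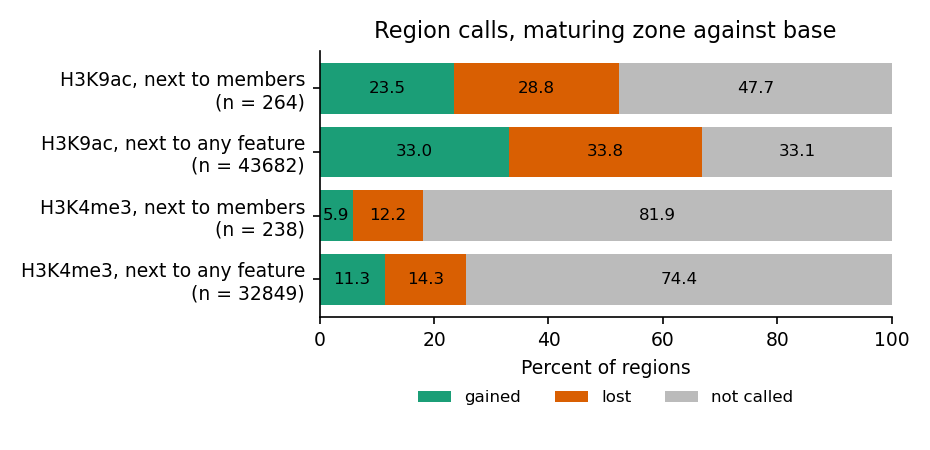
Percent of regions gained, lost or not called in the maturing zone against the base by the authors' deposited FDR, for regions next to members and next to any feature. Members have larger shares of regions not called, 47.7% for H3K9ac and 81.9% for H3K4me3.

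The strongest marks stood beside GRMZM2G375724. Its main H3K9ac region on chromosome 7, 159274310 to 159276067, averaged 2072 in the maturing zone and 1834 in the base in the authors' deposited table. The H3K4me3 region over it averaged 1556 in the maturing zone and 1386 in the base in the authors' deposited table. Neither was called, and the member's transcript, at 419.9 and 377 CPM in the maturing zone against 128 and 149.6 CPM in the base, was not called either. Of the 4 members next in H3K9ac average, GRMZM2G015921, GRMZM2G457430 and GRMZM2G141024 had regions that were not called, at 1081, 1011 and 851 in the maturing zone against 896, 838 and 994 in the base in the authors' deposited table. The other was GRMZM2G449830, whose H3K9ac region on chromosome 5 averaged 587 in the maturing zone and 1068 in the base, a loss of 1.82-fold in the authors' deposited table. Its H3K4me3 averages were 378 in the maturing zone and 763 in the base, 2.02-fold apart in the authors' deposited table, also a loss. Its transcript stood at 1.24 and 1.09 CPM in the maturing zone against 7.88 and 9.09 CPM in the base, a difference of -2.86 ± 0.68 (edgeR adjusted p = 0.0322) whose call was lost whichever library was left out (0.0722 to 0.165).

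The transcripts of the other 3 were uneven between libraries. GRMZM2G015921 stood at 9.61 and 2.96 CPM in the maturing zone against 9.08 and 3.23 CPM in the base, GRMZM2G457430 at 2.62 and 7.40 against 4.58 and 14.0, and GRMZM2G141024 at 1.804 and 6.71 against 5.56 and 14.9. The zones overlapped in all 3, and none was called (edgeR adjusted p = 0.978, 0.471 and 0.332). Within each letter GRMZM2G457430 and GRMZM2G141024 were lower in the maturing zone, and the edgeR fit with letters as pairs called both (adjusted p = 0.00689 and 0.000810). For H3K4me3 the next highest after GRMZM2G375724 were GRMZM2G095408, GRMZM2G153286, GRMZM2G449830 and GRMZM2G331026. Their averages ranged from 378 to 724 in the maturing zone against 750.0 to 829 in the base in the authors' deposited table. The transcript of GRMZM2G153286 stood at 1.21 and 3.55 CPM in the maturing zone against 4.31 and 10.6 CPM in the base, that of GRMZM2G095408 at 8.15 and 6.12 against 2.13 and 1.92, and that of GRMZM2G331026 at 5.04 and 9.47 against 4.44 and 10.7. None of these 3 was called (edgeR adjusted p = 0.208, 0.092 and 0.954), while the fit with letters as pairs called GRMZM2G153286 and GRMZM2G095408 (0.000419 and 0.000293). Strong regions were thus found beside members of modest transcript level as well as beside GRMZM2G375724, the seventh by reads.

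Marks and transcripts were set side by side through each member's region of highest average, with the region calls of the authors' deposited tables. Of the 39 members higher in the maturing zone, 16 had this H3K9ac region gained, 2 lost, 6 not called and 15 had no region. Of the 27 lower members, 0 had it gained, 18 lost, 2 not called and 7 had no region. Among the 234 members not called, 26 had it gained, 44 lost, 100 not called and 64 had none. For H3K4me3 the higher members had 6 gained, 0 lost, 14 not called and 19 without a region, the lower members 1 gained, 12 lost, 8 not called and 6 without, and the members not called 4, 9, 156 and 65. Across members, the log2 difference of the H3K9ac average and that of the transcript had a Pearson's r of 0.70 over 214 members, with the same sign in 162. For H3K4me3 it was 0.65 over 210 members, with the same sign in 153, and between the marks 0.67 over 205. These values describe members that share libraries and zone averages, and no test was made on them. The same counts and r values were not taken over other features, so whether they are particular to the members was not tested.

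**Figure D5:**
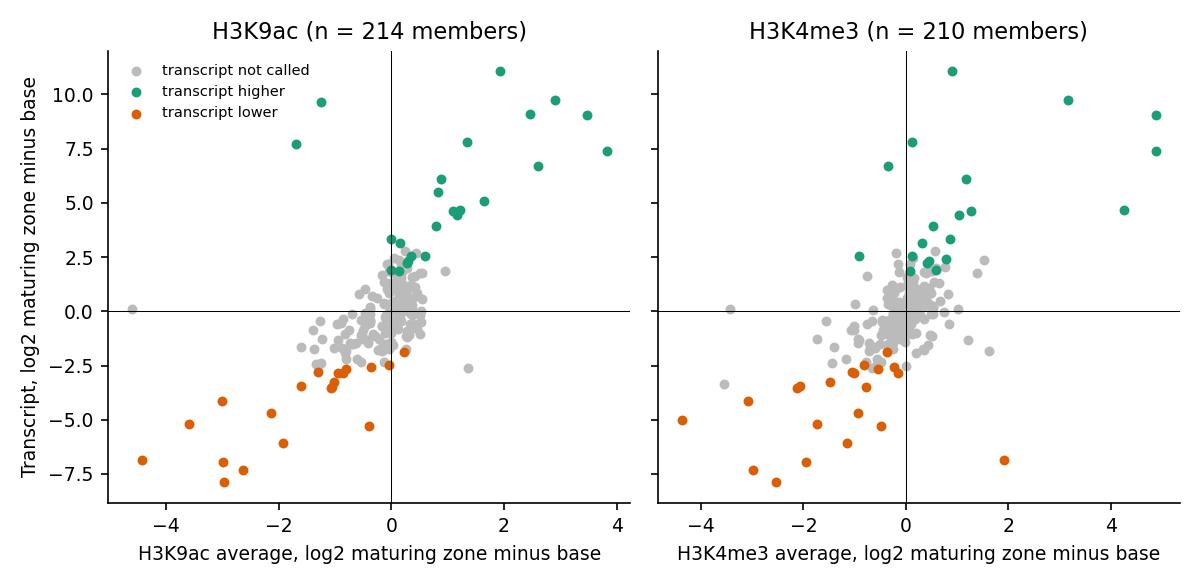
Log2 difference of the transcript (maturing zone minus base) against that of the authors' average for the member's region of highest average, for H3K9ac (214 members) and H3K4me3 (210 members). Lower transcripts lie mostly at lost H3K9ac, 18 of 27, and no lower transcript has a gained H3K9ac region.

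In 18 members the transcript and both marks were called. Of these, 6 had a higher transcript with both marks gained, 11 a lower transcript with both marks lost, and 1, GRMZM2G302131, a lower transcript with H3K9ac lost and the highest H3K4me3 region gained. The matching counts over all features were not taken. GRMZM2G164229, the eleventh by reads, stood at 319.9 and 860 CPM in the maturing zone against 1.92 and 5.06 CPM in the base. Its B libraries were above its A libraries in both zones, the zones were far apart, and it was higher by 7.41 ± 1.06 (edgeR adjusted p = 0.0139). Its H3K9ac region on chromosome 4, 1079022 to 1079743, averaged 701 in the maturing zone and 49.6 in the base, 14.1-fold higher in the authors' deposited table. The H3K4me3 region there averaged 179 in the maturing zone and 6.10 in the base, 29.4-fold higher in the authors' deposited table. GRMZM2G350391 had 3 gained H3K9ac regions between 236755324 and 236758062 on chromosome 2, of 14.87-fold, 11.13-fold and 4.09-fold, and an H3K4me3 region 29.65-fold higher in the authors' deposited table. GRMZM2G316474 had an H3K9ac region 7.53-fold and an H3K4me3 region 8.96-fold higher in the authors' deposited table.

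Among lower members, GRMZM2G344911 had H3K9ac averages of 58.6 in the maturing zone and 465 in the base and H3K4me3 averages of 104 in the maturing zone and 402 in the base in the authors' deposited table, both on chromosome 7 near 88941318. GRMZM5G836314 had H3K9ac averages of 42.8 in the maturing zone and 265 in the base and H3K4me3 averages of 16.5 in the maturing zone and 130 in the base in the authors' deposited table. Both marks were lost at each of these members, whose transcripts are among the 8 largest falls. GRMZM2G007273 and GRMZM2G121724 had near-equal counts: 126 and 11 reads in the maturing zone against 2684 and 452 in the base for GRMZM2G007273, and 129 and 13 reads in the maturing zone against 2690 and 424 in the base for GRMZM2G121724. Their regions lie apart, on chromosome 3 from 206497633 and on chromosome 8 from 98503994, with H3K9ac lost 2.10-fold and 3.04-fold and H3K4me3 lost 4.38-fold and 4.21-fold in the authors' deposited table. Their differences were -3.54 ± 0.85 and -3.44 ± 0.83 (edgeR adjusted p = 0.0329 and 0.0338), and both calls were lost without maturing zone library B (0.0537 and 0.0583) and without base library A (0.0751 and 0.102). Another 6 pairs of members had counts within 10% of each other in all 4 libraries. The sources used here do not give how reads matching several copies were counted, and near-identical elements may share reads.

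The following members were picked after their values were seen. GRMZM2G302131 had 4 H3K9ac regions within 78370364 to 78374684 on chromosome 8. In the authors' deposited table the first 3 were lost 27.52-fold, 21.61-fold and 7.00-fold, and the fourth, at 226 in the maturing zone and 186 in the base, was 1.22-fold higher and not called. Its first and second H3K4me3 regions were lost 6.30-fold and 3.97-fold in the authors' deposited table, and the last, over the fourth H3K9ac region, averaged 513 in the maturing zone and 136 in the base, 3.77-fold higher. The loss and the gain were thus within the same stretch, and the files do not say which region belongs to the member. GRMZM2G703753, whose transcript was higher, had 1 H3K9ac region gained 2.99-fold and another, next to it, lost 3.22-fold in the authors' deposited table. The second lower region beside a higher transcript was that of GRMZM5G829881, at 45.9 in the maturing zone and 109 in the base, lost 2.37-fold in the authors' deposited table.

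Large mark differences also stood beside transcripts that were not called, in 2 members likewise chosen after their values were seen. GRMZM2G112288 had an H3K9ac region lost 24.29-fold and an H3K4me3 region lost 10.88-fold on chromosome 1 from 202620872 in the authors' deposited table. Its transcript stood at 5.56 and 2.07 CPM in the maturing zone against 5.70 and 1.49 CPM in the base, with overlapping zones and a difference of 0.10 with a 95% interval of -2.29 to 2.48. GRMZM2G141481 had an H3K9ac region gained 10.89-fold and an H3K4me3 region gained 38.95-fold on chromosome 1 from 143503169 in the authors' deposited table, where the H3K4me3 average was 58.3 in the maturing zone and 1.5 in the base. A further pair of regions from 143486602, with higher averages, named the same member and was not called. Its transcript stood at 3.41 and 2.86 CPM in the maturing zone against 1.82 and 1.31 CPM in the base, apart between zones but with an interval of -0.81 to 2.81 around a difference of 1.00 (edgeR adjusted p = 0.0202 with letters as pairs).

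Of the 81 members with no region of either mark, 14 were higher and 6 were lower, and their median difference was 0.75, against -0.04 for the 205 members with both marks, of which 19 were higher and 20 lower. Of the 9 members with H3K9ac alone 5 were higher and 0 lower, and of the 5 with H3K4me3 alone 1 was higher and 1 lower. Over all features tested, 13.5% were higher and 15.8% lower. The median read sum was 660 without a region and 1478 with both marks. Of the 16 members with the largest called differences, GRMZM2G134914, GRMZM2G388129, GRMZM2G156351, GRMZM2G033222, GRMZM2G051915 and GRMZM2G439229 had no region of either mark.

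Genes known for keeping transposable elements silent were read from the same fit. Planned gene names without a match, among them mop3, rmr1, rmr6, ago104 and dcl3, were left out, so the list covers silencing in part. The others were matched through RefSeq names to 10 features of 9 genes, all tested, since GRMZM2G333997 and GRMZM2G334041 both carry the name met1. Of these 4 were lower in the maturing zone, 0 were higher and 6 were not called, all 10 had negative differences, and the median was -3.53. Over all features tested, 15.8% were lower. The chromomethylase gene met2 (GRMZM2G025592), which maintains methylation outside CG sites, stood at 15.4 and 10.6 CPM in the maturing zone against 233 and 108 CPM in the base, a difference of -3.71 ± 0.66 (edgeR adjusted p = 0.0179). Its relative met5 (GRMZM2G005310) stood at 3.73 and 1.78 CPM in the maturing zone against 104 and 50.3 CPM in the base, a difference of -4.78 ± 0.73 (edgeR adjusted p = 0.0146). Both were apart between zones, as were cha101 (GRMZM2G177165) and chr101a (GRMZM2G071025), at -6.94 ± 0.89 and -5.96 ± 0.76 (edgeR adjusted p = 0.0130 each). The RNA-dependent RNA polymerase gene mop1 (GRMZM2G042443), which acts in making small RNAs, stood at 1.58 and 0.888 CPM in the maturing zone against 8.64 and 3.05 CPM in the base, with a difference of -2.22 ± 0.87 that was not called (edgeR adjusted p = 0.110; 0.000297 with letters as pairs). With letters as pairs 9 of the 10 features were lower, beside 40.4% of all features tested. All 10 differences stayed negative with each library left out in turn, the smallest being -0.05 for rmr2 (GRMZM2G009208) without base library B. Values of the members and of this list stand side by side, and a relation between them was not tested.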

How the data were processed

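RNA was read as 50 bp single-end reads from poly(A) RNA, per the labels' protocols. Per the submitters' processing notes the build was B73 RefGen_v3 and the tools were edgeR, DiffBind 1.10.0, CASAVA 1.8.2 and Trimmomatic 0.32, with no step assigned to each. The sources used here do not give the aligner, the read counter, its treatment of reads with several matches or the strandedness. The deposited RNA table holds whole-number counts of exon reads and the authors' RPKM per library, per the file headers. The deposited region tables hold, per the file headers, an average normalized read signal per zone, a signed fold score and an FDR-corrected p-value. The header names the fold as base over maturing zone, but a positive deposited fold score went with a higher maturing zone average in every region. Region coordinates are given as deposited. The sources used here do not give the scaling, replicate number or depth behind these averages, which therefore carry no error.

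Members were read off the fit over all features: counts were kept by filterByExpr (edgeR 4.0.16, minimum count 10), scaled by TMM and tested with the quasi-likelihood test without covariates. Differences are maturing zone minus base, standard errors come from the difference and its F statistic, and calls have a Benjamini-Hochberg adjusted p under 0.05. The fit without covariates was also run on simulated counts with known differences. These counts were drawn without the difference between letters A and B that the zones share, so they do not test the fit under it. A base or maturing zone sum of 0 was set to a floor of 3 reads over the zone, and ratios with 1 to 3 reads have exact binomial 95% intervals; these cover counting error only, because reads carry no molecular identifiers. RNA replicates are separate pools of plants per the labels, and with 2 libraries per zone the p-values rest on few degrees of freedom.

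Base pieces came from the same leaves per the labels' protocols, but whether equal letters mean equal pools is not stated there, and a fit with a replicate block for the letter is given beside the other where it changes a call or a count. Alternatives were DESeq2 (1.42.0), its size factors, library totals, no count filter, each library left out, other member limits and rankings, and stricter region calls. Members named in the text are the 10 with most reads, the 8 largest called rises and 8 largest called falls with zones apart, the 5 next to the highest region of each mark, up to 6 with transcript and both marks called, and those at the limit; the 6 with RefSeq names and the members described as picked after their values were seen are in addition. The members, the silencing list and these rules were chosen with earlier results of these data known.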

Additional observations from a re-analysis of the deposited data

How the results depend on the processing

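The share of members called higher was 13% and stayed within 1.5 times of it except with the replicate block. The share called lower, 9%, was 25.3% under library totals, 15.3% without a count filter, 14.7% with the DESeq2 Wald test (20.2% of all features) and 15% among the first 100 members. With the replicate block 38.7% of members were higher and 35% lower, against 35.6% and 40.4% of all features, and no member changed direction among the 66 called. Over all features tested, 31.0% were lower under library totals, and leaving out 1 library gave 9.39% to 14.6% lower and 9.65% to 12.8% higher. For members the same fits gave 6% to 9.33% lower and 9% to 11.7% higher. The members' median difference of 0.09 was 0.19 with DESeq2 size factors and with the DESeq2 Wald test, -1.05 under library totals, -0.11 without a count filter, 0.11 with the replicate block, 0.16 for the first 100 members, 0.15 and -0.066 with members ranked by mean CPM and mean RPKM, and from -0.27 (maturing zone library A left out) to 0.46 (base library A left out). A ranking by mean CPM shared 286 members and one by mean RPKM 258. The authors' deposited table called 62 members, 34 higher and 28 lower (20.7%, beside 30.2% of the features tested here), of which 57 had the same call here and 0 the reverse call. With at least a 2-fold difference 9.47% of members' H3K9ac regions were gained and 11.7% lost, and at an FDR under 0.01 3.78% of their H3K4me3 regions were gained. Shares over all regions were not computed at these limits, so the comparison of members with all regions rests on an FDR under 0.05. Of 315 values of 35 named members under 9 alternatives, 275 kept direction and call, 19 lost a call, 11 won one and 10 turned. All turns were of members not called: GRMZM2G015921 (-1.06 under library totals, -0.16 without a filter, and from -1.06 to 0.98 with 1 library left out), GRMZM2G457430 (-1.84 to 0.084 with 1 library left out) and GRMZM2G331026 (0.065 with DESeq2 size factors, 0.064 with the Wald test, 0.0096 with the replicate block, and -0.61 to 0.67 with 1 library left out). The causes were not tested. Where 1 library is left out, the lone library is assumed to vary like the other zone. The limit of regions to within 2 kb of a member was not run, since the files used here give no feature positions.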
